A study of Mus musculus with 5 samples.

Results

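The genes described are 9 transcription factor genes of the naive pluripotency network of mouse ESCs, Klf2, Klf4, Klf5, Esrrb, Tbx3, Tfcp2l1, Prdm14, Zfp42 and Sall4, beside the 3 core genes Pou5f1 (Oct4), Sox2 and Nanog. The rule lists them by name and uses no measured value, and they are 9 of the 22359 protein-coding genes whose promoters were counted. Pcgf6 ChIP-seq had been carried out in CCE ESCs, an established mouse line, to find the DNA regions that Pcgf6 binds. The cells were unmodified CCE cells of low passage, grown with serum and LIF and cross-linked with disuccinimidyl glutarate and paraformaldehyde. The 5 libraries were 2 replicates with a Pcgf6 antibody from Santa Cruz, 2 replicates with a Pcgf6 antibody from Abcam, and 1 input library made without antibody. None of these libraries came from cells lacking Pcgf6, and a single line was used.

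Naive pluripotency is the state of the preimplantation epiblast, and in culture with LIF it is held by a network in which Oct4, Sox2 and Nanog act together with a second layer of factors that can partly replace one another. Klf4 and Tfcp2l1 are known to respond to the LIF and Stat3 pathway, Esrrb to the inhibition of Gsk3, and Tbx3 to PI3K and Mapk signals. Pcgf6 is the Pcgf subunit of a variant Polycomb repressive complex of the PRC1 family that also holds L3mbtl2, E2f6 and the bHLH and T-box protein Mga, and it is best known for silencing germ cell genes in ESCs. ChIP-seq measures DNA pulled down with the antibody, so neither the expression of these genes nor the identity of the cells can be read from it.

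The deposited values were coverage, that is the depth of reads extended to 300 bp at each position of mm9, from which single fragments were recovered. The replicates of an antibody were largely the same fragments: 87.9% of Santa Cruz replicate 1 was found again in replicate 2 at a fixed shift, and 88.1% of Abcam replicate 1. They differed by less than sampling noise (chi-square per degree of freedom 0.12 and 0.132 in 10-kb windows, against about 1 between antibodies) and were counted as 1 library an antibody. After pooling, 2562400 Santa Cruz fragments, 3159505 Abcam fragments and 22135373 input fragments were left. No independent replicate therefore exists, the tests compare libraries and not conditions, and every interval given is an exact 95% interval that covers counting error only.

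The promoter sequences were compared first, because E-boxes, T-box sites and E2F sites are the kinds of sequence that subunits of the Pcgf6 complex are known to bind. The E-box CACGTG, the T-box core GGTGTGA and the E2F site GCGGGAA were searched as exact letters on both strands from 250 bases before to 50 bases after the TSS. Klf4 was the only one of the 9 genes whose promoter held any of them, with an E-box at -182 and an E2F site at -129 from the TSS. The E-box occurred in 7.7% of all promoters, the T-box core in 3.74% and the E2F site in 5.67%. Ddx4, a germ cell RNA helicase gene whose promoter served as the reference for a large enrichment, held the same pair, with the E2F site at -136 and the E-box at -29, and matches to different motifs did not overlap in either gene. The upstream 250 bases of both are shown because they share these letters while Ddx4 was enriched and Klf4 was not, and those of Tbx3 and Tfcp2l1 because these genes had the highest ratios of the 9. All are from NCBIM37 (mm9), 5′ to 3′ on the strand of the gene, with motif matches in capitals: Klf4 at chr4:55545348-55545597 (minus strand), Ddx4 at chr13:113442519-113442768 (minus strand), Tbx3 at chr5:120120428-120120677 (plus strand) and Tfcp2l1 at chr1:120524272-120524521 (plus strand).
Klf4: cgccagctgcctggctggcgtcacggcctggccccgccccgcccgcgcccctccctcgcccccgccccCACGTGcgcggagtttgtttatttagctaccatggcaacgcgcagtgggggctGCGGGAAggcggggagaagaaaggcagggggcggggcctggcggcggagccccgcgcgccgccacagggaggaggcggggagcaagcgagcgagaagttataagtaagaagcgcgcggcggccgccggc
Ddx4: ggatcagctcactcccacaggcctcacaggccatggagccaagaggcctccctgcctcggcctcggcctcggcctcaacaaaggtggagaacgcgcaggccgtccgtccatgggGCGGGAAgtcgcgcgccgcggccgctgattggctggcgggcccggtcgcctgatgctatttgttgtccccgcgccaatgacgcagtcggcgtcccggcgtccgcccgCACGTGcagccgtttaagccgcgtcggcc
Tbx3: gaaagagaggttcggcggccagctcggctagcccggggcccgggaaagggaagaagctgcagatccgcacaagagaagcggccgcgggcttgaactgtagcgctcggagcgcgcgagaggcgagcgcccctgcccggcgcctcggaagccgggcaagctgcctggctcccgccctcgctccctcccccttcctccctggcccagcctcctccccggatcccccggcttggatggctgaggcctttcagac
Tfcp2l1: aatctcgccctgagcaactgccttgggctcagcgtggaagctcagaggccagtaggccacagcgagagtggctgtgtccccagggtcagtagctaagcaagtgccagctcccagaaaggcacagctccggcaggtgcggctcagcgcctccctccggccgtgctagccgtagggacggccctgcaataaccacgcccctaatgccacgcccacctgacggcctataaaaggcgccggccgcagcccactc
None of these stretches overlapped an annotated exon. A match is a description of letters, and the absence of one says nothing about binding.

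The question was whether Pcgf6 ChIP fragments were enriched over input at the promoters of the naive network. The ratio given is that of ChIP to input fragments in a window, each as a share of its library. Each window covered the upstream region and the start of the gene, and held the TSS of no other protein-coding gene. With either antibody, 0 of the 9 promoters were enriched within ±2 kb of the TSS, and 7 of the 9 had fewer fragments than the input predicted. Over all promoters, 0.622% passed with Santa Cruz, 1.12% with Abcam and 0.479% with both (one-sided exact binomial test, adjusted after Benjamini and Hochberg over 22359 promoters, threshold 0.05). Without adjustment, 0 of the 9 had a p under 0.05 with either antibody, against 5.04% and 6.32% of all promoters. At shares this low, 0 of 9 does not set the genes apart from other promoters. The median ratio of the 9 was 0.576 with Santa Cruz and 0.682 with Abcam, and that of all promoters 0.9 and 0.945. Ddx4 was picked as the reference for a large enrichment with earlier results of these data known. Its values and p-values therefore show only that a large one could be seen. Its promoter held 33 Santa Cruz and 48 Abcam fragments against 32 in the much deeper input. The ratios were 8.91 (5.31 to 15) and 10.5 (6.58 to 17), with adjusted p = 6.11e-13 and 1.92e-20 in the same exact binomial test.

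**Figure D1:**
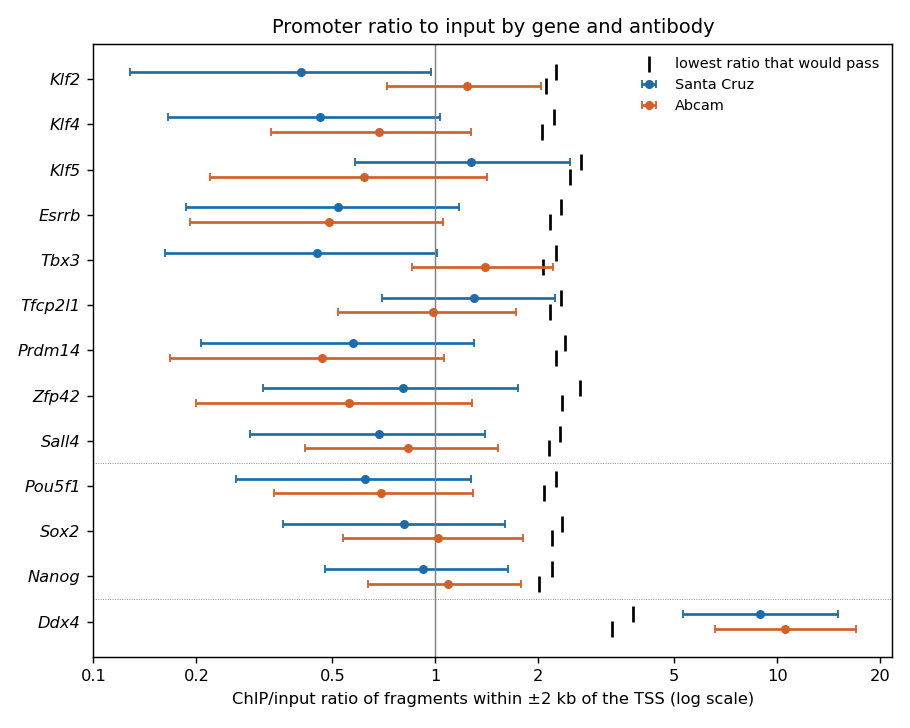
ChIP/input ratio of fragments within ±2 kb of the TSS (log axis) for the 9 naive genes, the 3 core genes and Ddx4, with points for the ratio, bars for the exact 95% interval and black ticks for the lowest ratio that would have passed the test. The points of the 9 genes lie between 0.404 and 1.4, all short of their ticks, and those of Ddx4 lie past them.

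Klf2, Klf4 and Klf5 encode Krüppel-like zinc finger factors with overlapping roles in self-renewal. Klf2 (chromosome 8, 74842932 to 74845555, plus strand) had 5 Santa Cruz, 19 Abcam and 107 input fragments around its TSS. The Santa Cruz ratio was 0.404 (0.128 to 0.972) and the Abcam ratio 1.24 (0.721 to 2.04). The mean depth in the window per 1e9 of the depth sum was 1.26 in the input, 0.546 and 0.435 in the Santa Cruz files, and 1.52 and 1.4 in the Abcam files. Both Santa Cruz files thus lay under the input and both Abcam files over it, and files of an antibody share most of their fragments. Klf2 was the only one of the 9 genes whose Santa Cruz interval lay wholly below the input, which 3.22% of all promoters also showed. With Abcam 0 of the 9 did so, against 3.13%.

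Klf4 (chromosome 4, 55540013 to 55545347, minus strand) had 6 Santa Cruz, 11 Abcam and 113 input fragments. Its ratios were 0.459 (0.165 to 1.03) and 0.682 (0.331 to 1.27). The scaled depth was 1.24 in the input, 0.682 and 0.564 in the Santa Cruz files and 0.927 and 0.789 in the Abcam files, so all 4 ChIP files were below the input. Klf4 was among 124 promoters (0.555%) that held both an E-box and an E2F site. Of these, 7 passed with Santa Cruz (5.65%) and 10 with Abcam (8.06%), against 0.622% and 1.12% of all promoters. Their median ratios were 1.02 and 0.996, against 0.9 and 0.945 over all promoters. Promoters with the pair thus passed more often than promoters in general, a difference that was not tested. Ddx4, the reference chosen for a large enrichment, was among those that passed with each antibody. Most of them still did not pass, Klf4 among them.

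Klf5 (chromosome 14, 99697910 to 99712624, plus strand) had 10 Santa Cruz, 6 Abcam and 68 input fragments, the fewest input fragments of the 9 genes. Its Santa Cruz ratio was 1.27 (0.583 to 2.48) and its Abcam ratio 0.618 (0.219 to 1.42). The scaled depth was 0.78 in the input, 1.09 and 0.761 in the Santa Cruz files, and 0.431 and 0.263 in the Abcam files. The Santa Cruz files lay on both sides of the input although they share most of their fragments.

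Esrrb, an orphan nuclear receptor, had 6 Santa Cruz, 7 Abcam and 100 input fragments at its main TSS, the one shared by 3 of its 6 coding transcripts (chromosome 12, 87762594, plus strand). Its ratios were 0.518 (0.186 to 1.17) and 0.49 (0.192 to 1.05). The scaled depth was 1.13 in the input, 0.688 and 0.575 in the Santa Cruz files and 0.453 and 0.614 in the Abcam files, all 4 below the input. Esrrb spans 87702067 to 87862578 and has other TSSs, so these were counted too. The TSS at -60527 bp from the main one had ratios of 1.05 (0.434 to 2.19) and 0.955 (0.418 to 1.93), and the one 48473 bp downstream had 0.72 (0.302 to 1.48) and 0.803 (0.388 to 1.5). The ratio at the upstream TSS was near 1 with both antibodies, and its intervals overlapped those of the main TSS.

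Tbx3 encodes a T-box repressor that sustains self-renewal. Its main promoter (chromosome 5, gene at 120120678 to 120134733, plus strand) held 6 Santa Cruz, 23 Abcam and 115 input fragments. The Santa Cruz ratio was 0.451 (0.162 to 1.01) and the Abcam ratio 1.4 (0.854 to 2.21), the highest ratio of the 9 genes with that antibody (p = 0.0912, adjusted p = 0.968, one-sided exact binomial test). The scaled depth was 1.34 in the input, 0.655 and 0.652 in the Santa Cruz files, and 1.99 and 1.9 in the Abcam files. As at Klf2, both Abcam files were above the input and both Santa Cruz files below it. By 500-bp bins, the Abcam library had 5, 5, 4 and 3 fragments from 1000 bp before to 999 bp after the TSS, where the input predicted 2.57, 2.71, 2 and 1.28. The Santa Cruz library had 1, 0, 0 and 0 fragments there, where the input predicted 2.08, 2.2, 1.62 and 1.04. In the bin from -1500 to -1001 bp the order was the other way, with 3 Santa Cruz and 2 Abcam fragments where 1.04 and 1.28 were predicted. Of the 23 Abcam fragments of Tbx3, 17 lay within 1 kb of the TSS, and of the 6 Santa Cruz fragments, 1 did. At the TSS 10082 bp downstream the ratios were 0.605 (0.237 to 1.29) and 0.841 (0.42 to 1.53).

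Tfcp2l1, a factor of the CP2 family and listed under an older symbol in the annotation (chromosome 1, 120524522 to 120581744, plus strand), had 15 Santa Cruz, 14 Abcam and 100 input fragments. Its ratios were 1.3 (0.699 to 2.24) and 0.981 (0.518 to 1.72). The scaled depth was 1.15 in the input, 1.53 and 1.41 in the Santa Cruz files, and 1.32 and 1.01 in the Abcam files, so 3 of the 4 ChIP files were above the input. Over both antibodies together Tfcp2l1 had the highest ratio of the 9 genes (1.12). The promoters most like it, by the Euclidean distance of log2 fragments scaled to library totals in the 3 pooled libraries, were those of Cald1, C1qtnf4 and Ankrd13d (distances 0.0143, 0.0144 and 0.0902), none of them a pluripotency factor.

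Prdm14, a PR-domain protein known to repress Fgf signalling and DNA methyltransferase genes (chromosome 1, 13103538 to 13117244, minus strand), had 6 Santa Cruz, 6 Abcam and 90 input fragments. Its ratios were 0.576 (0.206 to 1.3) and 0.467 (0.167 to 1.06), the latter the lowest Abcam ratio of the 9. Zfp42, better known as Rex1 and widely used as a marker of naive cells (chromosome 8, 44380422 to 44392363, minus strand), had 7, 6 and 75 fragments and ratios of 0.806 (0.313 to 1.74) and 0.56 (0.199 to 1.28). Sall4, a spalt-like zinc finger factor that works with Oct4 (chromosome 2, 168573832 to 168593443, minus strand), had 8, 12 and 101 fragments and ratios of 0.684 (0.288 to 1.4) and 0.832 (0.416 to 1.52). At all 3 genes the scaled depth of every ChIP file was below the input: 0.526 to 0.655 against 1.03 at Prdm14, 0.362 to 0.66 against 0.849 at Zfp42, and 0.852 to 1 against 1.12 at Sall4. An internal TSS of Sall4, 11258 bp downstream of the main one, had ratios of 0.727 (0.305 to 1.49) and 1.11 (0.596 to 1.92).

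**Figure D2:**
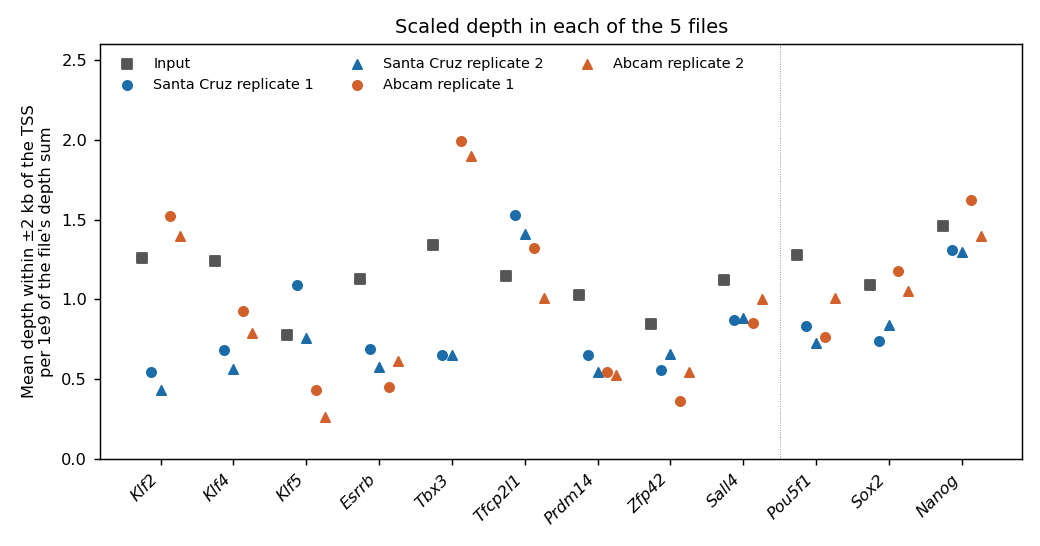
Mean depth within ±2 kb of the TSS per 1e9 of the file's depth sum, for each of the 5 files (squares for the input, circles for replicate 1, triangles for replicate 2). The ChIP files lie below the input at Klf4, Esrrb, Prdm14, Zfp42 and Sall4, and at Klf2 and Tbx3 the Santa Cruz files lie below it and the Abcam files above it.

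Ordered by the ratio over both antibodies, the genes ran from Tfcp2l1 (1.12) through Tbx3 (0.976), Klf5 (0.91), Klf2 (0.868), Sall4 (0.766), Zfp42 (0.671), Klf4 (0.582) and Prdm14 (0.516) to Esrrb (0.503). Neighbours in this order cannot be told apart: with each antibody the intervals of all 9 genes overlapped one another. The order also differed between antibodies, with Tfcp2l1 and Klf5 over 1 with Santa Cruz and Tbx3 and Klf2 over 1 with Abcam. With each antibody 2 of the 9 genes (22.2%) were over 1, against 41.1% of all promoters with Santa Cruz and 45.6% with Abcam. With both antibodies 0 of the 9 were over 1, against 24.2% of all promoters. Summed over the 9 genes, 69 Santa Cruz and 104 Abcam fragments stood against 869 in the input. This gave a ratio of 0.686 (0.529 to 0.877) in the Santa Cruz library and 0.838 (0.677 to 1.03) in the Abcam library, where all promoters summed to 0.944 (0.939 to 0.948) and 0.993 (0.988 to 0.997). By depth, without recovery of fragments, the summed ratio was 0.735 and 0.655 in the Santa Cruz files and 0.848 and 0.814 in the Abcam files. The Santa Cruz sum thus lay below both the input and the mean of all promoters, and the Abcam interval held both 1 and the mean of all promoters.

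The core genes gave no call either. Pou5f1 had 8 Santa Cruz, 11 Abcam and 111 input fragments and ratios of 0.623 (0.262 to 1.27) and 0.694 (0.337 to 1.29). Sox2 had 9, 14 and 96 fragments and ratios of 0.81 (0.359 to 1.6) and 1.02 (0.538 to 1.8). Nanog had 13, 19 and 122 fragments and ratios of 0.92 (0.477 to 1.63) and 1.09 (0.635 to 1.78). None of the 3 passed (adjusted p = 1, one-sided exact binomial test), and their summed ratios were 0.788 (0.523 to 1.15) and 0.937 (0.668 to 1.29). These intervals overlapped those of the 9 naive genes with both antibodies.

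Depth set how small an enrichment could have been seen. At the 9 promoters, 21 to 30 Santa Cruz fragments or 24 to 34 Abcam fragments would have been needed to pass, which are ratios of 2.22 to 2.67 and 2.05 to 2.47. The highest upper bound among the 9 was 2.48, for Klf5 with Santa Cruz. These are observed ratios, so a true enrichment near or below them at a single gene could have been missed at this depth.

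**Figure D3:**
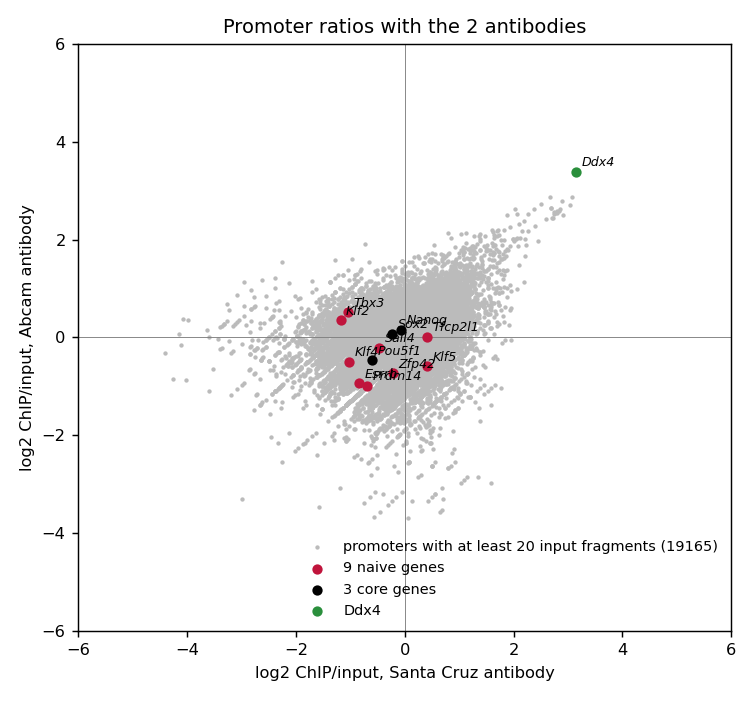
Log2 ChIP/input ratio at the 19165 promoters with at least 20 input fragments, Santa Cruz on the x axis and Abcam on the y axis, with 0.5 fragment added to each count. The 9 naive genes (red) and 3 core genes (black) lie within the main cloud, apart from the arm of promoters high with both antibodies in which Ddx4 (green) lies.

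The 2 antibodies were compared directly, since both were raised to Pcgf6. Tbx3 and Klf2 had the largest differences of the 9 genes, with Abcam 3.11-fold (1.23 to 9.33) and 3.08-fold (1.11 to 10.6) over Santa Cruz (unadjusted p = 0.0125 and 0.0268, both with an adjusted p = 1, two-sided exact binomial test). The difference was called at 0 of the 9 genes and at 0.00894% of all promoters, and 2.41% of all promoters had an unadjusted p under 0.05. Klf5 differed the other way, at 0.487-fold (0.145 to 1.48). The remaining 6 ran from 0.695-fold at Zfp42 to 1.49-fold at Klf4, with intervals that all held 1. The Tbx3 value depended on the window. Within ±1 kb it had 1 Santa Cruz, 17 Abcam and 60 input fragments, so that the Santa Cruz ratio was 0.144 (0.00359 to 0.833), the Abcam ratio 1.99 (1.09 to 3.45), and the difference 13.8-fold (2.16 to 576, p = 7.1e-04, adjusted p = 1, exact binomial test). At Klf2 the difference within ±1 kb was 2.43-fold (0.607 to 14). Within ±5 kb the differences were smaller than within ±2 kb, 1.88-fold at Tbx3 and 1.57-fold at Klf2 (unadjusted p = 0.043 and 0.162, two-sided exact binomial test). Neither gene passed after adjustment with any of these windows. Within ±10 kb the Abcam ratio to input was under 1 at both, 0.93 at Tbx3 and 0.865 at Klf2.

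Each promoter was next set against its own surroundings, the 20 kb on either side of the window (2 to 22 kb from the TSS), which cancels a copy number shared by both. The flanks of the 9 genes were themselves low: the summed flank ratio was 0.855 (0.783 to 0.932) in the Santa Cruz library and 0.84 (0.775 to 0.909) in the Abcam library, against 0.923 and 0.926 over all genes. The interval of the flanks lay wholly below the input at 5 of the 9 genes with Santa Cruz and 4 with Abcam, against 14.5% and 15.9% of all genes. With both antibodies these included Klf4 (0.75 and 0.737), Esrrb (0.726 and 0.703) and Tbx3 (0.644 and 0.68). The core genes were alike, at 0.701 to 0.74 in the Santa Cruz library and 0.721 to 0.843 in the Abcam library. Klf5 and Zfp42 went against this. Klf5 had a Santa Cruz flank ratio of 1.24 (0.959 to 1.59) and an Abcam one of 1.33 (1.06 to 1.65), the only flank of the 9 with an interval above the input. Zfp42 had a Santa Cruz flank ratio of 1.31 (0.963 to 1.76) and an Abcam one of 1 (0.731 to 1.35). Whole chromosomes that carry the 9 genes had Santa Cruz ratios of 0.955 to 1.03 and Abcam ratios of 0.962 to 1.04.

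The ratio of window to flanks, ChIP over input, was called at 0 of the 9 genes with either antibody, against 0.38% of all promoters with Santa Cruz and 0.881% with Abcam (one-sided Fisher's exact test, adjusted over 22359 promoters). Its median was 0.714 and 0.926, against 0.956 and 1 over all promoters. Tbx3 with Abcam had the highest value, with 23 fragments in the window and 82 in the flanks against 115 and 845 in the input, a local ratio of 2.06 (1.19 to 3.46, p = 0.00503, adjusted p = 0.262, Fisher's exact test). With all deposited fragments counted, which counts most fragments in both replicates, it was 2.28 with an adjusted p = 0.00382 (Fisher's exact test), and 2.77% of all promoters then passed. The local ratio was lower with flanks of 10 kb (1.75, adjusted p = 0.708) and of 50 kb (1.72, adjusted p = 0.483, both Fisher's exact test). With Santa Cruz the local ratio of Tbx3 was 0.7 (0.242 to 1.66). Klf2 followed at 1.62 (0.889 to 2.84) with Abcam and 0.411 (0.127 to 1.03) with Santa Cruz. The Abcam value of Tbx3 combined a window ratio of 1.4 with a flank ratio of 0.68, and the Santa Cruz library had a like flank ratio (0.644) and no such window.

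**Figure D4:**
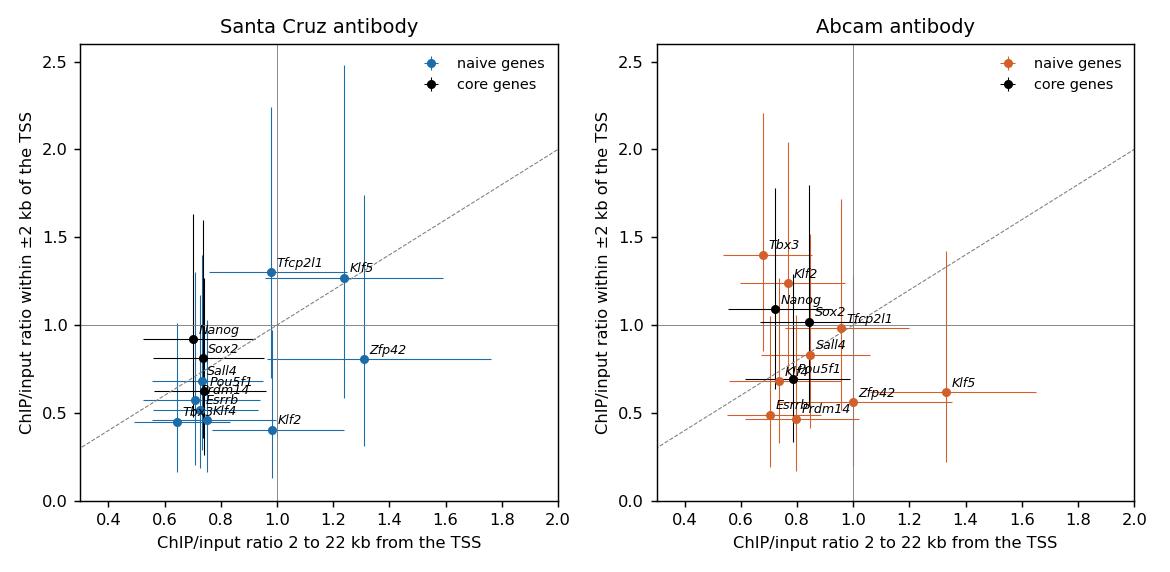
ChIP/input ratio within ±2 kb of the TSS (y axis) against that of the flanks 2 to 22 kb away (x axis), for each antibody, with exact 95% intervals as bars and equality as a dashed line. Most flanks of the 9 naive genes (coloured) and all flanks of the 3 core genes (black) lie under 1, Klf5 lies to the right with both antibodies and Zfp42 with Santa Cruz, and Tbx3 with Abcam lies farthest above the line.

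The input itself was denser at these promoters than around them. The density of input fragments in the window over that in the flanks at the 9 genes was 1.25 to 2.15 (median 1.42), lowest at Esrrb and highest at Zfp42, against a median of 1.32 over all promoters. Within 500 bp of the TSS the GC content of the 9 genes was 48.6% (Zfp42) to 69.7% (Klf4), and the median of all promoters was 54.8%. The ratio of observed to expected CpG ran from 0.487 at Zfp42 to 0.96 at Klf4, against a median of 0.549. Only Zfp42 and Prdm14 (0.504) lay under that median. ChIP ratios under 1 with both antibodies were found at Zfp42 and Klf4, and also at Esrrb, Prdm14 and Sall4 between these ends. The part of input density and GC content in the ratios was not tested.

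By position, no 500-bp bin within 4 kb of the TSS had an interval above the input when the 9 genes were summed. Of 16 bins, 1 lay wholly below the input with each antibody: 1500 to 1999 bp after the TSS with Santa Cruz (0.252, 0.0511 to 0.756) and 0 to 499 bp after it with Abcam (0.441, 0.198 to 0.861). Over all promoters, whose counts are far larger, 15 of the 16 bins with Santa Cruz and 12 with Abcam lay wholly below the input. At 1500 to 1999 bp the Santa Cruz ratio over all promoters was 0.948 (0.933 to 0.964). At 0 to 499 bp the Abcam ratio over all promoters was 1.01 (1 to 1.02), and the Santa Cruz ratio of the 9 genes was 0.665 (0.324 to 1.23). The Santa Cruz bins of the 9 genes ranged from 0.252 to 1.21 and their Abcam bins from 0.441 to 1.43, with no rise toward the TSS.

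**Figure D5:**
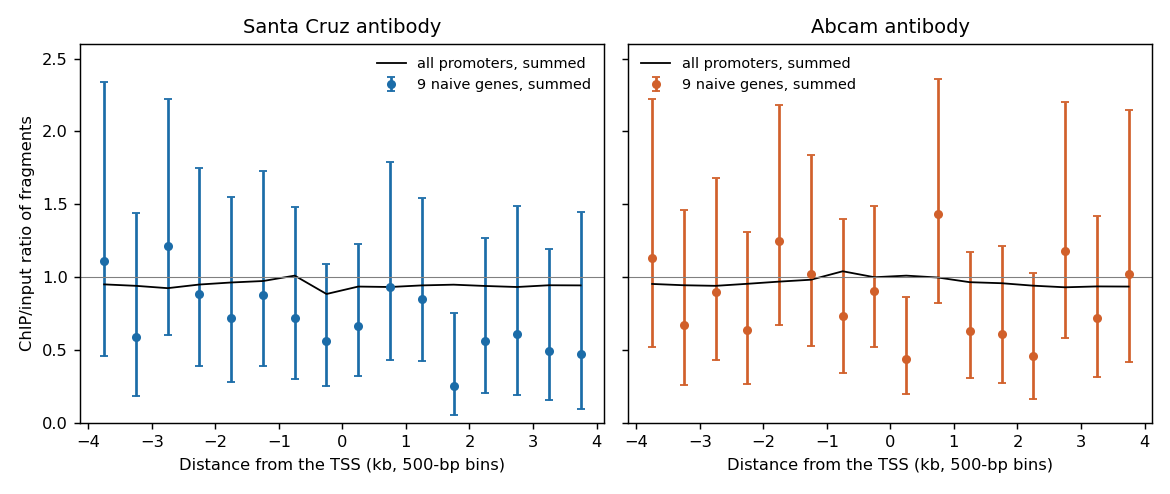
ChIP/input ratio in 500-bp bins by distance from the TSS, summed over the 9 naive genes (points, with exact 95% intervals) and over all promoters (black line), for each antibody. The points scatter around or below 1 without a peak at the TSS.

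A scan of 1-kb tiles within 22 kb of the main TSSs of the 9 genes, and over their other TSSs, looked for sites outside the promoters. Of their 354 tested tiles with Santa Cruz and 357 with Abcam, 0 were called, where 0.0191% and 0.0263% of the tiles of the genome were (one-sided exact binomial test, adjusted over all tiles with a sum of at least 10 fragments). An unadjusted p under 0.05 was reached by 3 tiles with Santa Cruz (0.847%) and 9 with Abcam (2.52%). The share of all tiles of the genome with such a p is not available here to set beside them. Such a p was found with both antibodies at 1 tile, centred 5410 bp upstream of the Klf5 TSS. It held 4 fragments of each antibody against 7 in the input, where 0.81 were predicted with Santa Cruz (unadjusted p = 0.021 with Santa Cruz and 0.0389 with Abcam, both with an adjusted p = 1, exact binomial test). The tile over the Tbx3 TSS had 11 Abcam fragments and 1 Santa Cruz fragment against 38 in the input (Abcam p = 0.0367, adjusted p = 1, exact binomial test). The Klf5 tile is part of the flank in which Klf5 stood above the input.

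The other genes of the network were counted from a list of 29 genes of the naive network and the LIF pathway. None passed (0 of 29 with either antibody, and 1 with an unadjusted p under 0.05 with each), where 0.622% and 1.12% of all promoters passed and 5.04% and 6.32% had such an unadjusted p. Counts this low do not set the list apart from other promoters. Their median ratios were 0.841 with Santa Cruz and 0.789 with Abcam. Their highest ratio over both antibodies was that of Tcl1, an Akt cofactor, at 2.03 (adjusted p = 0.353 and 0.257, exact binomial test), and the lowest that of Lifr, the LIF receptor, at 0.461. Of 16 markers of formative and primed cells 0 passed as well, against the same shares of all promoters, with medians of 0.891 and 1.01. They ran from Dnmt3b, a de novo DNA methyltransferase, at 0.707 to Cer1, a Nodal and BMP antagonist, at 1.88 (adjusted p = 1 and 0.37, exact binomial test). The 9 genes had a lower median than both lists with both antibodies, and no difference between the lists was tested.

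Family members of the 9 genes were counted in the same way, beside the 0.622% of all promoters that passed with Santa Cruz and the 1.12% that passed with Abcam. Of 14 Krüppel-like relatives, Klf14 passed with Abcam (16 Santa Cruz, 26 Abcam and 74 input fragments, ratios of 1.87 and 2.46, adjusted p = 0.742 and 0.0219, exact binomial test), and the lowest was Klf6 at 0.509 over both antibodies. Of 16 T-box relatives, Mga, the T-box subunit of the Pcgf6 complex, passed with both (33, 52 and 86 fragments, ratios of 3.31 and 4.24, adjusted p = 5.17e-05 and 3.88e-11, exact binomial test), and the lowest was Tbx22 at 0.484. The relatives of the other genes gave 0 calls with either antibody. Among them ran, from highest to lowest over both antibodies, Yy2 (3.22, on 18 input fragments) and Yy1 (1.2) for Zfp42, Tfcp2 (1.58) and Grhl1 (0.781) for Tfcp2l1, Sall2 (1.05) and Sall1 (0.679) for Sall4, and Esrrg (0.978) and Esrra (0.62) for Esrrb. The lowest of the 14 relatives of Prdm14 was Prdm13 (0.659). Mga and Tbx3 belong to 1 family, and the difference between them was not tested.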

How the data were processed

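The authors deposited a coverage signal for every library, counting at each mm9 base the reads, lengthened to 300 bp, that cover it, neither scaled nor divided by input. The submitters' processing notes name Bowtie (0.1.2.7), and filters are not given in the sources used here. Fragments were recovered from the steps of this signal. Fragments shared by the replicates of an antibody, or at 1 position, were counted once. Promoters were ±2 kb around the TSS with most coding transcripts (GENCODE, NCBIM37). Ratios were scaled by pooled totals. Exact binomial tests (promoters, antibodies, 1-kb tiles) and Fisher's exact test (window against flanks) were adjusted after Benjamini and Hochberg. Intervals were Clopper-Pearson. The members and lists were chosen with earlier results of these data known. From the lists, genes that passed or ranked first or last were named, except 1 that is not reported here. Alternatives were other windows, flanks, scalings, tiles, TSSs, an input minimum, all deposited fragments, and single replicates. Steps were tested on simulated data. Software was scipy 1.17.1, numpy 2.4.6, numba 0.67.0, pandas 2.3.3 and matplotlib 3.10.9 under Python 3.11.15.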

Additional observations from a re-analysis of the deposited data

How the results depend on the processing

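Of 180 ratios of the 9 genes recomputed under other settings, 0 passed the threshold, 6 lay on the other side of 1 and 1 left its interval: Tbx3 with Santa Cruz, at 0.144 with ±1 kb in place of 0.451. Some of the 180 could not move. The input minimum left out none of the 9 genes and so changed no ratio, and the most upstream TSS changed only those of Esrrb. With ±1 kb the Tbx3 difference between antibodies was 13.8-fold and its Santa Cruz local ratio 0.219, and 1 promoter in place of 2 differed between antibodies after adjustment. At ±5 kb the Tbx3 difference was 1.88-fold. With ±10 kb, 91 promoters passed with Santa Cruz in place of 139. The Abcam ratios of Tbx3 (0.93) and Klf2 (0.865) were then under 1, and that of Klf5 (1.27) was over 1. Counting all deposited fragments, and so most fragments in both replicates, 382 promoters passed with Santa Cruz and 622 with Abcam in place of 250. The window against its flanks then passed at 341 promoters with Santa Cruz in place of 85 and at 620 with Abcam in place of 197, 1 of the 9 genes among them with Abcam (Tbx3, local ratio 2.28). With replicate 1 or 2 left out, the local ratio of Tbx3 with Abcam was 2.21 and 2.2 and did not pass (adjusted p = 0.211 and 0.257, Fisher's exact test). It was 1.75 and 1.72 with flanks of 10 and 50 kb in place of 20 kb, and 2.91 with ±1 kb (adjusted p = 0.708, 0.483 and 0.0647, Fisher's exact test). No paired analysis was possible because the replicates of an antibody hold the same fragments and count as 1 library. With 5 to 23 ChIP fragments a promoter, a single gene needed an observed ratio of 2.05 to 2.67 to pass. A true enrichment near or below those values could have been missed.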
